A study of Mus musculus with 8 samples.

Results

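The 9 genes described here cover the identity, light response and neuropeptide of the melanopsin ganglion cells of the mouse retina. All were taken by name from the 17500 genes of the deposited table. They are *Opn4*, *Eomes*, *Adcyap1*, *Gnaq*, *Gna11*, *Gna14*, *Plcb4*, *Trpc6* and *Trpc7*. All 9 passed the count filter, which kept 16797 genes for testing. The comparison asks whether their RNA differed in retinas that had lost *Rbfox2*, a splicing regulator, in a study that also measured the pupillary light reflex. Whole retinas came from 4 control mice (M833, M894, M896, M898) and 4 *Rbfox2*-/- mice (M893, M901, M902, M909), all on the C57BL/6J background and 6 months old. The *Rbfox2*-/- mice, which the labels call Rbfox2 KD, carried *Rbfox2* fl/fl and a tamoxifen-dependent Cre that is not restricted to 1 cell type. In the study's methods the controls were age-matched heterozygous *Rbfox2* fl/+ mice. The labels of every mouse, controls included, name tamoxifen and a time of 4 months, so the labels do not show whether the controls received the drug.

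Melanopsin, the product of *Opn4*, is the photopigment of a small class of retinal ganglion cells that respond to light on their own and drive pupil constriction and the setting of the circadian clock. In its best known pathway, melanopsin activates a G protein of the Gq class (α subunits from *Gnaq*, *Gna11* or *Gna14*), the G protein activates phospholipase C β4 (*Plcb4*), and the lipid signal opens cation channels of the TRPC family, among them those from *Trpc6* and *Trpc7*. *Eomes*, also known as *Tbr2*, encodes a T-box transcription factor required for these ganglion cells, and *Adcyap1* encodes PACAP, the neuropeptide that they release together with glutamate in their brain targets. Several of these genes are also used by other retinal cells, so that in a whole retina their RNA is not that of the melanopsin cells alone.

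Promoter sequences are shown for *Opn4*, which defines the cell class, and for *Adcyap1* and *Trpc6*. These were the members with higher CPM (defined below) in every *Rbfox2*-/- mouse than in every control. Each runs 5′ to 3′ on the strand of its gene over the 250 bases before the RefSeq start site on GRCm38.p6, at chr14:34600143-34600392 (minus strand) for *Opn4*, chr17:93198767-93199016 (plus strand) for *Adcyap1* and chr9:8543892-8544141 (plus strand) for *Trpc6*. Capitals mark TGACG, the core of the cAMP response element.
*Opn4*: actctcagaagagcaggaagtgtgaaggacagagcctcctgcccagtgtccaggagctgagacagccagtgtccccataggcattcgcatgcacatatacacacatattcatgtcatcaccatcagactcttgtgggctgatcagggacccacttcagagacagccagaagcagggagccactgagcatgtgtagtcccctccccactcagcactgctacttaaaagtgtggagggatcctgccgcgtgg
*Adcyap1*: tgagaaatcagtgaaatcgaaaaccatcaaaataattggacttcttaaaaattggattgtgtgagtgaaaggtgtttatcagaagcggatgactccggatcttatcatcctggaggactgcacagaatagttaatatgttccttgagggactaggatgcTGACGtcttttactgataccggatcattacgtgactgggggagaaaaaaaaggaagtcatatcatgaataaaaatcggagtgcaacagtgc
*Trpc6*: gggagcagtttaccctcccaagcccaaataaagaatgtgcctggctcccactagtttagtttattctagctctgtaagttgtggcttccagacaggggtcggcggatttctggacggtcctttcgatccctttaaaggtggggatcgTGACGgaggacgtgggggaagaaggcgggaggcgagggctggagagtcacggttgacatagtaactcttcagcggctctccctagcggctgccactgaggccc
TGACG or its complement CGTCA was found in 17.8% of 32851 mouse promoter windows of this length and in 2 of the 9 members, *Adcyap1* (first base 91 before the start site) and *Trpc6* (103 before). The motif was chosen after the values were known, and a match is a description of the letters and not of a bound site. The T-box core GGTGTGA (complement TCACACC), in 3.33% of windows, and the E-box CACGTG, in 6.02%, were found in the window of 0 members. For each of the 3 genes printed, the RefSeq start site was the same base as the start of the gene in GENCODE M21.

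Poly(A) RNA was sequenced as 1 library per mouse, with totals of 160630226 to 211283591 counts per mouse. Levels are given as CPM, the usual share of a library's counts scaled to a fixed total, with library sizes normalized by TMM, and 3 counts correspond to between 0.0142 and 0.0187 CPM before that scaling. *Rbfox2* had 149.6 ± 5.39 CPM (SD, n = 4) in controls and 56.5 ± 3.15 (SD, n = 4) in *Rbfox2*-/- retinas, with every *Rbfox2*-/- mouse below every control. Ganglion cell identity of the tissue was read from 12 ganglion cell markers, all detected in every mouse. Their summed level was 872 CPM in control M833 and between 1324 and 1376 in the other controls, and in *Rbfox2*-/- mice it was 1329 (M893), 1392 (M901), 1229 (M902) and 1057 (M909). M901 and M902, both *Rbfox2*-/-, stood apart on the first principal component (40.5% of the variance), and M909 stood apart on the second (19.2%). M901 and M902 were also the only libraries with high *Xist* (275967 to 277506 counts against 312 to 426). No control had high *Xist*, so it was not balanced between the groups.

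The groups were compared by the quasi-likelihood test of edgeR, and p-values were adjusted over all genes tested by the Benjamini-Hochberg method to a false discovery rate (FDR). Of the 9 members, 0 reached an FDR under 0.05, which 11 genes or 0.0655% of all those tested did. At an unadjusted p under 0.05 there were 3 members, against 13.3% of all genes. *Adcyap1* and *Trpc6* were higher in *Rbfox2*-/- retinas (6.42% of all genes) and *Gna11* was lower (6.87%). The same 3 members were those whose groups did not overlap in CPM, against 7.03% of all genes. The log2 fold change was above 0 for 6 members and below 0 for 3, with a median of 0.04 against 0.00 over all genes tested. Adjusted p over the 9 members ran from 0.184 to 0.951.

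**Figure D1:**
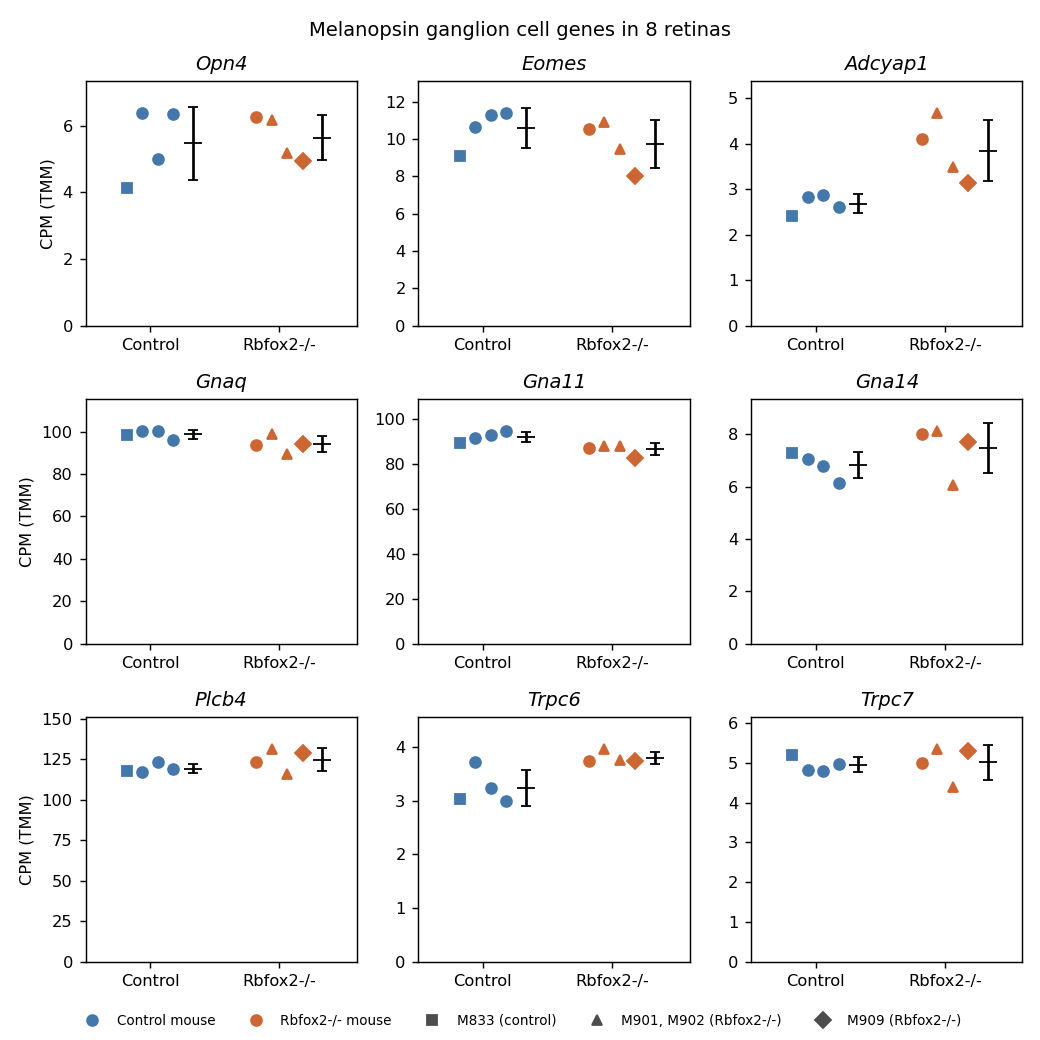
CPM (TMM-scaled, axes from 0) of the 9 members in each mouse, with controls in blue and Rbfox2-/- mice in orange. Bars give the mean and SD of 4 mice, and squares, triangles and diamonds mark M833, M901 with M902, and M909. *Adcyap1* lay between 2.42 and 2.88 in controls and between 3.14 and 4.67 in Rbfox2-/- mice, while the groups of *Opn4* overlapped.

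*Opn4* (chromosome 14 of GRCm38, 34590618 to 34600142, minus strand) had 4.13 CPM in control M833, 6.38 in M894, 4.999 in M896 and 6.36 in M898. The *Rbfox2*-/- retinas held 6.26 (M893), 6.17 (M901), 5.17 (M902) and 4.94 CPM (M909). All *Rbfox2*-/- values lay inside the range of the controls, whose lowest value was that of M833. The means were 5.47 ± 1.10 CPM (SD, n = 4) in controls and 5.63 ± 0.675 (SD, n = 4) in *Rbfox2*-/- retinas. On the log2 scale the difference, *Rbfox2*-/- minus control, was 0.04 ± 0.15 (SE, 95% interval -0.28 to 0.37, edgeR adjusted p = 0.928), and an exact two-sided permutation test over mice gave p = 0.886. Differences outside a 17.7% lower to 29.2% higher *Opn4* level lay beyond this interval. The controls varied with a coefficient of variation of 20.1%, where counting alone gives 3.14% at 820 to 1189 counts per mouse. The sign of the *Opn4* difference depended on single libraries, with a log2 fold change of -0.07 without M833, -0.01 without M893 and -0.0040 without M901.

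*Eomes* (chromosome 9, 118478212 to 118486132, plus strand) had 9.07 CPM in M833, 10.6 in M894, 11.3 in M896 and 11.4 in M898. The *Rbfox2*-/- retinas held 10.5 (M893), 10.9 (M901), 9.44 (M902) and 8.03 CPM (M909). Only M909 was below every control, and M833 was the lowest control for *Eomes* as for *Opn4*. The group means were 10.6 ± 1.07 and 9.73 ± 1.29 CPM (SD, n = 4 each), with a log2 fold change of -0.12 (SE 0.11, 95% interval -0.36 to 0.11, edgeR adjusted p = 0.646).

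*Opn4* and *Eomes* were set against the ganglion cell markers across mice. *Opn4* and the summed markers had a Pearson r of 0.855 over 8 mice (exact permutation p = 0.00682, 0.0614 after adjustment over the 9 members) and a Spearman rho of 0.571 (exact permutation p = 0.151, adjusted 0.648). Without M833 and M909, the mice farthest from the median of the marker sum, r fell to 0.509, so the relation rests on those mice. For *Eomes*, r was 0.793 (exact permutation p = 0.0247, adjusted 0.111), rho was 0.881 (exact permutation p = 0.00724, adjusted 0.0652) and r without the same mice was 0.918. None of the 9 relations passed after adjustment. The other 7 members had r between -0.291 and 0.475 over 8 mice. Without M833 and M909, r was 0.912 for *Trpc7*, 0.743 for *Gnaq* and 0.700 for *Plcb4*, so that a high value over the remaining 6 mice was not limited to *Eomes*. With the log2 marker sum as a covariate, added after the data were seen, the log2 fold change was 0.02 for *Opn4* (adjusted p = 0.943 from edgeR) and -0.15 for *Eomes* (adjusted p = 0.306 from edgeR). In these bulk samples, fewer cells of a type and less RNA per cell cannot be told apart. Of the 12 markers, only *Isl1*, a transcription factor gene, had an unadjusted p under 0.05 (13.3% of all genes). Its log2 fold change was -0.19 (adjusted p = 0.116 from edgeR).

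**Figure D2:**
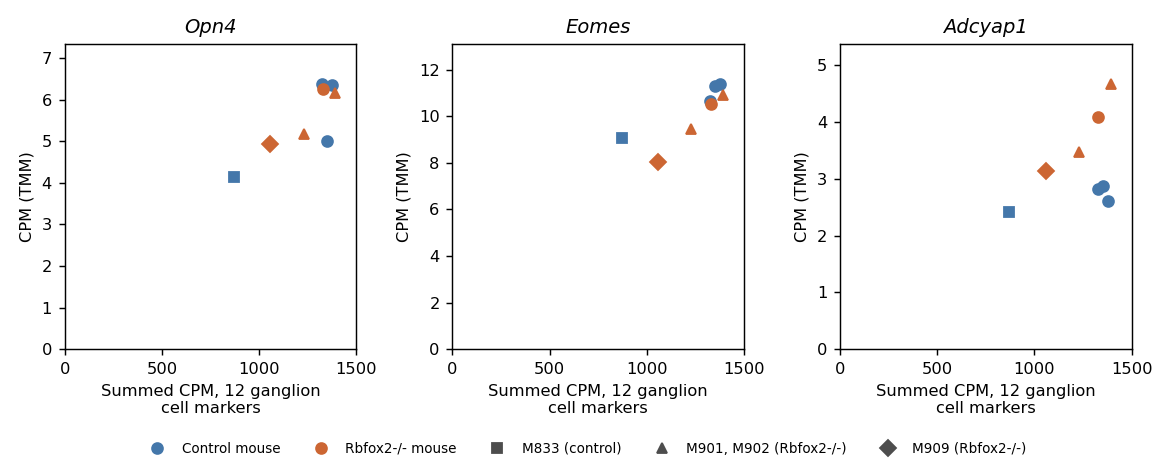
CPM of *Opn4*, *Eomes* and *Adcyap1* (y axes) against the summed CPM of 12 ganglion cell markers (x axes) in 8 mice, with controls in blue and Rbfox2-/- mice in orange. M833 (square, marker sum 872) had the lowest *Opn4* and M909 (diamond, marker sum 1057) the lowest *Eomes*, and for *Adcyap1* the orange points lie above the blue ones.

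*Adcyap1* (chromosome 17, 93199017 to 93206537, plus strand), the PACAP gene whose promoter is printed above, had the widest difference among the members. It had 2.42 CPM in control M833, 2.82 in M894, 2.88 in M896 and 2.61 in M898, against 4.09 (M893), 4.67 (M901), 3.48 (M902) and 3.14 CPM (M909) in *Rbfox2*-/- mice. All 4 *Rbfox2*-/- mice were above all 4 controls. Among the *Rbfox2*-/- mice the order of *Adcyap1* was the order of the ganglion marker sum. In controls it was not, since M898, with the highest sum, was below M894 and M896. Over 8 mice the Pearson r of *Adcyap1* with the marker sum was 0.475 (exact permutation p = 0.229, adjusted 0.687). Without M833 and M909 it was 0.0528. The *Adcyap1* means were 2.68 ± 0.211 and 3.85 ± 0.678 CPM (SD, n = 4 each), a level 43.5% higher (95% interval 17.3% to 75.6%). The log2 difference of 0.52 ± 0.13 (SE, edgeR unadjusted p = 0.00259, adjusted p = 0.184) ranked 235 of 16797 genes by p and did not pass. The exact permutation p of 0.0286 is the smallest that 4 mice against 4 allow. DESeq2 gave *Adcyap1* an adjusted p of 0.0122, the only alternative in which a member passed. With each mouse left out in turn the log2 fold change ran from 0.41 to 0.61 (adjusted p from 0.0829 to 0.427 in edgeR). Without M901 and M902 it was 0.43 (adjusted p = 0.731 from edgeR), and with the ganglion marker sum as a covariate it was 0.49 (adjusted p = 0.126 from edgeR). At least 462 counts per mouse stood behind these values.

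*Adcyap1r1*, the gene of the PACAP receptor PAC1, had values in the opposite direction. It had 11.6 CPM in M833, 14.4 in M894, 13.6 in M896 and 13.2 in M898, against 12.1 (M893), 12.4 (M901), 10.2 (M902) and 11.3 (M909). The groups overlapped, since M833 was below M893 and M901, and the log2 fold change was -0.20 (SE 0.08, edgeR unadjusted p = 0.0382, adjusted p = 0.354). The ratio of *Adcyap1* to *Adcyap1r1* counts, chosen after the values were seen and not tested, was between 0.196 and 0.212 in controls and between 0.277 and 0.376 in *Rbfox2*-/- mice. The ratio of *Adcyap1* to *Opn4* counts was between 0.410 and 0.585 in controls and between 0.635 and 0.758 in *Rbfox2*-/- mice. Since *Adcyap1* itself did not overlap and *Opn4* did, this ratio restates the *Adcyap1* values. *Opn4* to *Eomes* ratios overlapped, at 0.443 to 0.6002 in controls and 0.547 to 0.615 in *Rbfox2*-/- mice.

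**Figure D3:**
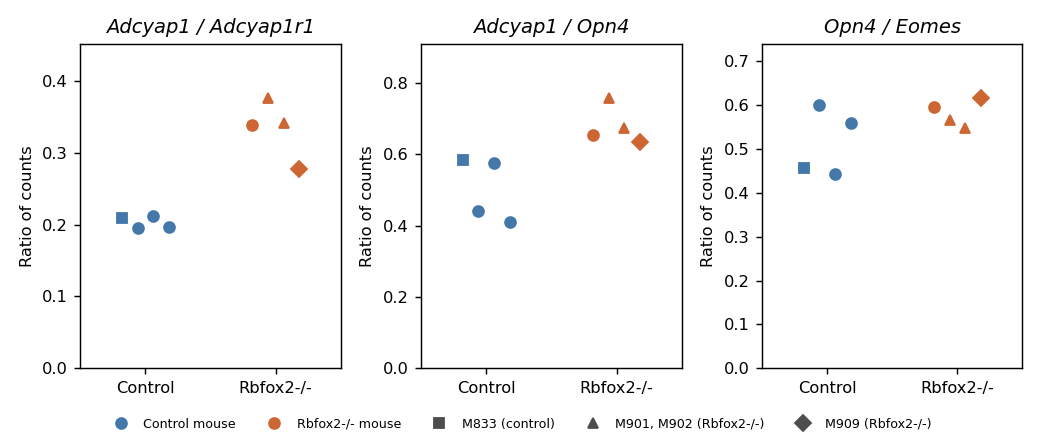
Ratios of counts (axes from 0) of *Adcyap1* to *Adcyap1r1*, *Adcyap1* to *Opn4* and *Opn4* to *Eomes* in each mouse, with controls in blue and Rbfox2-/- mice in orange. The first ratio was at most 0.212 in controls and at least 0.277 in Rbfox2-/- mice, and the third overlapped.

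The PACAP list of 14 further genes holds the receptors, related peptides, the processing enzymes of neuropeptides and adenylyl cyclases. *Adcyap1r1* was the only 1 of the 14 with an unadjusted p under 0.05, lower (6.87% of all genes), and 0 were higher (6.42%). The next lowest p was that of *Adcy9*, an adenylyl cyclase gene, with 43.9 ± 0.663 CPM in controls and 41.2 ± 1.95 in *Rbfox2*-/- retinas (SD, n = 4 each) and a log2 fold change of -0.09 (adjusted p = 0.378 from edgeR). The median log2 fold change of the list was -0.05. PACAP's closest relative *Vip* had a log2 fold change of 0.24 (adjusted p = 0.404 from edgeR), and the receptor gene *Vipr2* had 0.01 (adjusted p = 0.924 from edgeR), both named after their values were seen.

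Among the Gq α subunits, *Gna11* (chromosome 10, 81528724 to 81545190, minus strand) had 89.7 CPM in M833, 91.6 in M894, 93.1 in M896 and 94.8 in M898. *Rbfox2*-/- values were 87.4 (M893), 88.3 (M901), 88.1 (M902) and 82.6 CPM (M909). All *Rbfox2*-/- values were below all control values, and the level was lower by a small amount (-6.17%). The means were 92.3 ± 2.20 and 86.6 ± 2.66 CPM (SD, n = 4 each), and the log2 fold change was -0.09 (SE 0.03, 95% interval -0.17 to -0.02, edgeR unadjusted p = 0.0219, adjusted p = 0.303), with an exact permutation p of 0.0286. With each mouse left out in turn the unadjusted edgeR p ran from 0.0147 to 0.0614. Summed markers of 3 other cell classes also separated the groups, with Müller glia at 5166 to 5706 CPM in controls and 4779 to 5137 in *Rbfox2*-/- mice, horizontal cells at 255 to 267 and 232 to 239, and cones at 917 to 926 and 981 to 1116. The sums of all other cell classes examined overlapped between the groups. Among these were rods (60388 to 64410 CPM in controls and 62602 to 68293 in *Rbfox2*-/- mice) and bipolar cells (1131 to 1234 and 1098 to 1163). At an unadjusted p under 0.05 (6.42% of all genes higher, 6.87% lower), 2 of 5 Müller glia markers (*Glul* and *Dkk3*) were lower, and of 6 cone markers 2 were higher and 1 lower. Of 7 rod markers 3 were higher at that p, and of 6 bipolar markers 3 were lower. Of 5 horizontal cell markers, 1 was lower and 1 higher at that p. The lower was *Calb1* (log2 fold change -0.40), which also passed an FDR of 0.05, and the higher was *Lhx1* (0.18). *Calb1* had means of 76.2 CPM in controls and 57.9 in *Rbfox2*-/- mice and so weighed heavily in the horizontal cell sum. Most of the Müller glia sum came from *Glul*, with means of 3384 CPM in controls and 3002 in *Rbfox2*-/- mice. The log2 fold change was 0.05 for *Rlbp1*, 0.04 for *Aqp4* and -0.04 for *Slc1a3*, so the Müller glia markers did not move together. M909, the mouse with the lowest *Gna11*, had the highest sum of 4 cornea surface markers (38.3 CPM against 0.994 to 4.71 in the other mice). The part of these cell classes in the values of *Gna11*, or of the other members that several cell types use, was not tested.

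*Gnaq* (chromosome 19, 16132831 to 16387463, plus strand), the founding Gq subunit gene, had 98.5 CPM in M833, 100.3 in M894, 100.2 in M896 and 96.0 in M898. *Rbfox2*-/- values were 93.9 (M893), 98.7 (M901), 89.5 (M902) and 94.2 CPM (M909). The *Rbfox2*-/- mice other than M901 were below all controls, and the groups overlapped through M901. The log2 fold change was -0.07 (SE 0.04, edgeR adjusted p = 0.427). *Gna14* (chromosome 19, 16435762 to 16610820, plus strand), its neighbour on the chromosome, had 7.29, 7.05, 6.79 and 6.15 CPM in M833, M894, M896 and M898, and 8.02, 8.13, 6.08 and 7.70 CPM in M893, M901, M902 and M909. Here 3 *Rbfox2*-/- mice were above all controls and M902 was below them all, and the log2 fold change was 0.13 (SE 0.10, edgeR adjusted p = 0.592).

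*Plcb4* (chromosome 2, 135659011 to 136014593, plus strand) encodes the phospholipase C that carries the melanopsin signal. It had 118 CPM in M833, 117 in M894, 123.1 in M896 and 119 in M898, against 123.2 (M893), 131 (M901), 116 (M902) and 129 CPM (M909) in *Rbfox2*-/- mice. As for *Gna14*, 3 *Rbfox2*-/- mice were above all controls and M902 was below them all, but M893 only just passed M896. Its log2 fold change was 0.07 (SE 0.04, 95% interval -0.03 to 0.16, edgeR adjusted p = 0.532), around means of 119 ± 2.71 and 125 ± 7.04 CPM (SD, n = 4 each).

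*Trpc6* (chromosome 9, 8544142 to 8680741, plus strand), a channel gene and the other member with TGACG in the promoter printed above, had 3.03 CPM in M833, 3.72 in M894, 3.23 in M896 and 2.99 in M898. *Rbfox2*-/- values were 3.73 (M893), 3.96 (M901), 3.76 (M902) and 3.74 CPM (M909). The *Rbfox2*-/- mice lay close together and in CPM all above the controls, although control M894 reached nearly the same level. In the deposited FPKM, a level per gene length, M894 (1.154) was above M893 (1.153), M902 (1.139) and M909 (1.140). On that scale the groups overlapped. The level was 17.2% higher, with means of 3.24 ± 0.335 and 3.796 ± 0.109 CPM (SD, n = 4 each). On the log2 scale the difference was 0.23 (SE 0.09, 95% interval 0.02 to 0.43, edgeR unadjusted p = 0.0321, adjusted p = 0.340), with an exact permutation p of 0.0286. With each mouse left out in turn the unadjusted edgeR p ran from 0.00639 to 0.0821, and without M901 and M902 it was 0.145. Of 9 endothelium and pericyte markers, 7 had a log2 fold change below 0 (median -0.25). An unadjusted p under 0.05 (13.3% of all genes) was found for 3, namely *Pecam1* (-0.25), *Rgs5* (-0.34, groups without overlap) and *Acta2* (-1.17). Their summed level, most of it from *Kdr* (log2 fold change -0.03), was 252 to 279 CPM in controls and 228 to 293 in *Rbfox2*-/- mice. The part of vascular cells in the *Trpc6* values was not tested.

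*Trpc7* (chromosome 13, 56773113 to 56895993, minus strand), the other channel gene, had 5.21, 4.83, 4.79 and 4.98 CPM in M833, M894, M896 and M898. It had 4.99, 5.35, 4.41 and 5.30 CPM in M893, M901, M902 and M909. The groups overlapped on both sides, with a log2 fold change of 0.02 (SE 0.08, 95% interval -0.16 to 0.20, edgeR adjusted p = 0.951). Its sign reversed without M901, without M909 and on a scale set by the ganglion markers. The ratio of *Trpc6* to *Trpc7* counts overlapped as well, at 0.581 to 0.769 in controls and 0.706 to 0.853 in *Rbfox2*-/- mice.

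Levels of different genes were compared per length, as the deposited FPKM over 8 mice. *Plcb4* had the highest level (mean 33.1 FPKM), followed by *Gna11* (27.4) and *Gnaq* (17.1), and the ranges of these genes did not overlap. The genes that mark the melanopsin cells lay far lower, with *Eomes* at 2.78 FPKM (2.18 to 3.16) and *Opn4* at 2.46 (1.80 to 2.86). *Gna14* followed at 2.11 FPKM (1.77 to 2.39), *Adcyap1* at 1.56 (1.14 to 2.21), *Trpc7* at 1.49 (1.30 to 1.58) and *Trpc6* at 1.08 (0.915 to 1.2). From *Eomes* to *Trpc7* each neighbour in the order had a range that overlapped the next, although *Eomes* was above *Opn4* and *Gna14* above *Adcyap1* in all 8 mice. *Adcyap1* was above *Trpc7* in 3 of the 8 mice.

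**Figure D4:**
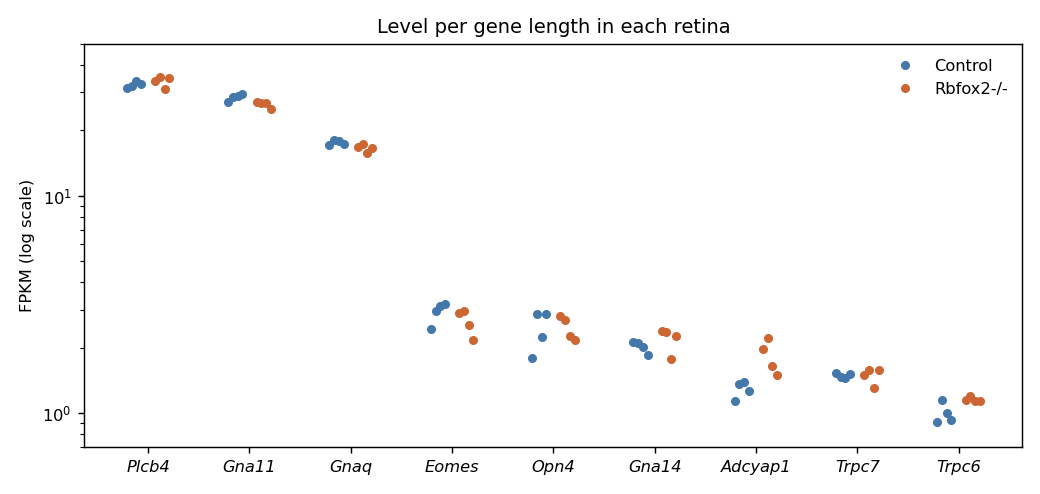
FPKM (log axis) of the 9 members in each mouse, ordered by mean, with controls in blue and Rbfox2-/- mice in orange. *Plcb4*, *Gna11* and *Gnaq* lay between 15.7 and 35.2 FPKM and the other members between 0.915 and 3.16.

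Within its family, each gene was also described by its share of the summed FPKM. *Gna11* made up 59.0 ± 1.07% of the Gq α RNA in controls and 58.2 ± 1.46% in *Rbfox2*-/- retinas (SD, n = 4 each), *Gnaq* 36.5% and 36.6%, and *Gna14* 4.21% and 4.85%. *Gna15*, the remaining Gq subunit gene, stood at 0.270% and 0.305%. *Plcb4* held 77.8 ± 1.19% of phospholipase C β RNA in controls and 79.6 ± 0.599% in *Rbfox2*-/- retinas (SD, n = 4 each), ahead of *Plcb3* and *Plcb1* at 10.1% to 11.3%. The melanopsin channel genes were minor within the TRPC family, at 2.74% and 2.84% for *Trpc7* and 1.84% and 2.20% for *Trpc6*, where *Trpc1* held 76.7% and 75.9%. These shares were not tested.

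Of 8 further Gq, phospholipase C β and TRPC genes tested, 0 had an unadjusted p under 0.05 (13.3% of all genes), and their median log2 fold change was -0.05. The lowest p were those of *Plcb3*, with 19.9 ± 1.199 CPM in controls and 18.3 ± 1.09 in *Rbfox2*-/- retinas (SD, n = 4 each; log2 fold change -0.12, adjusted p = 0.407 from edgeR), and of *Trpc1* (log2 fold change -0.05, adjusted p = 0.669 from edgeR). *Trpc2* was not analysed here.

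Among 7 other genes known from melanopsin ganglion cells or ganglion cells at large, 0 were higher (6.42% of all genes) and 1 was lower (6.87%) at an unadjusted p under 0.05. This was *Tbx20*, a T-box transcription factor gene, which had 3.26 CPM in M833, 4.30 in M894, 4.00 in M896 and 5.49 in M898, and 3.47, 3.30, 3.04 and 3.18 in M893, M901, M902 and M909. The controls spread widely and M833 lay among the *Rbfox2*-/- mice. *Tbx20* had a log2 fold change of -0.39 (SE 0.14, edgeR unadjusted p = 0.0212, adjusted p = 0.2996), and it was -0.25 to -0.50 with each mouse left out in turn. *Rasgrp1*, a Ras activator gene, followed with a log2 fold change of -0.11 (adjusted p = 0.392 from edgeR). The median of the list was -0.05, and 2 of its genes (*Slc17a6* and *Isl2*) are also among the ganglion markers.

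The 13 genes of the second messenger arm, downstream of phospholipase C, were 2 higher and 3 lower at an unadjusted p under 0.05. Of all genes, 6.42% were higher and 6.87% lower at that p. None of the 13 passed an FDR of 0.05. *Itpr1*, the gene of an IP3 receptor, had 91.1, 94.6, 90.4 and 92.1 CPM in M833, M894, M896 and M898, and 102.7, 109, 106 and 107 CPM in M893, M901, M902 and M909. The groups were well apart, with a log2 fold change of 0.20 (SE 0.03, edgeR adjusted p = 0.0623). DESeq2 gave it an adjusted p of 8.44e-06. The other IP3 receptor genes had values on the other side, at a log2 fold change of -0.14 for *Itpr2* (adjusted p = 0.268 from edgeR) and -0.64 for *Itpr3* (adjusted p = 0.243 from edgeR).

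*Itpr3* had 8.94 CPM in M833, 11.0 in M894, 9.47 in M896 and 12.03 in M898, and 7.92, 4.84, 4.93 and 8.79 in M893, M901, M902 and M909. Its lowest values were those of M901 and M902, which also had the lowest sums of 6 ciliary and iris epithelium markers (43.0 and 66.1 CPM, against 91.6 to 136 in controls and 105 and 110 in M893 and M909), and the part of that tissue in the *Itpr3* values was not tested. Without these 2 mice the log2 fold change of *Itpr3* was -0.31. Protein kinase C genes were *Prkce*, with a log2 fold change of -0.10 (adjusted p = 0.284 from edgeR), and *Prkcz*, an atypical form that diacylglycerol does not activate, with 0.11 (adjusted p = 0.374 from edgeR) and 0.03 without M901 and M902. The list's median was -0.05, and 4 of its 13 genes did not overlap between groups, against 7.03% of all genes.

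A list of possible regulators of the signal held 12 tested genes of receptor kinases, arrestins, a protein kinase A subunit and RGS proteins. Whether each of them acts on the melanopsin signal was not tested. The list held 0 higher genes (6.42% of all genes) and 1 lower (6.87%) at an unadjusted p under 0.05. *Rgs17*, of the RGS family that speeds the shut-off of G proteins, had 18.6, 18.7, 19.3 and 20.4 CPM in M833, M894, M896 and M898, and 17.7, 17.3, 16.0 and 16.7 in M893, M901, M902 and M909. All *Rbfox2*-/- mice were below all controls, with a log2 fold change of -0.19 (SE 0.05, edgeR unadjusted p = 0.0042, adjusted p = 0.216), and DESeq2 gave an adjusted p of 0.0337. *Rgs3* was next, with a log2 fold change of -0.07 (adjusted p = 0.532 from edgeR), and the list's median was -0.01.

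**Figure D5:**
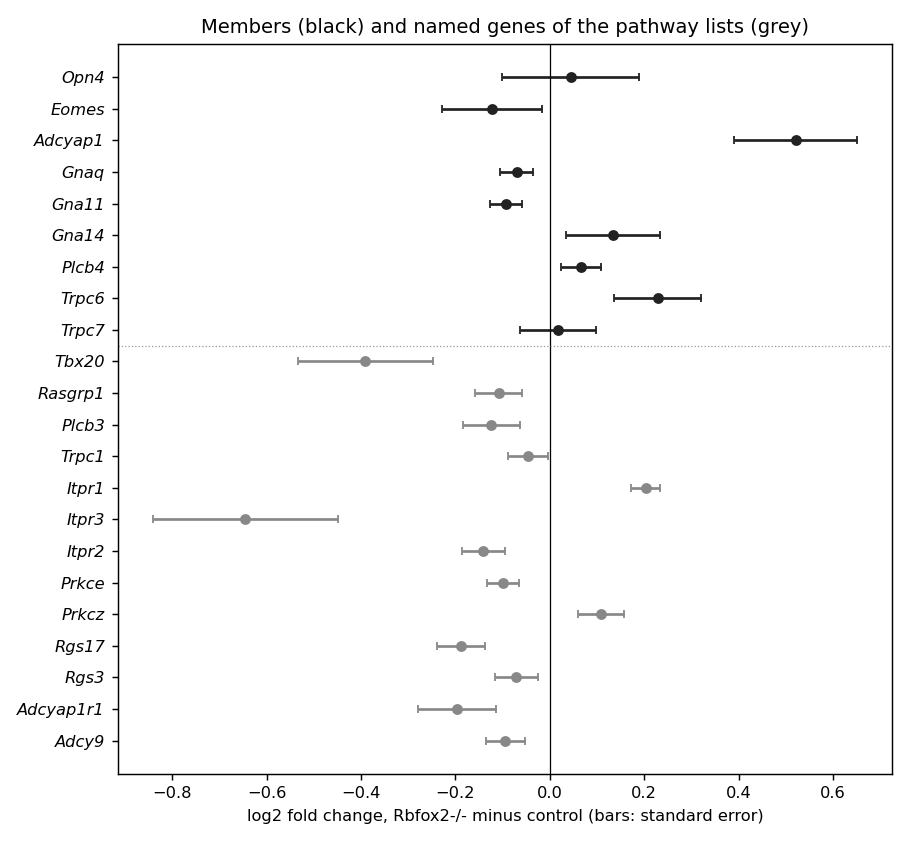
Log2 fold change (x axis, Rbfox2-/- minus control) of the 9 members in black and of the named genes of the pathway lists in grey, with bars of 1 standard error from edgeR. *Adcyap1* stands at 0.52 and *Trpc6* at 0.23 to the right, *Tbx20* at -0.39 and *Itpr3* at -0.64 to the left, and none of these genes passed an FDR of 0.05.

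Across the 8 mice, the genes whose log2(CPM + 1) was most like that of *Opn4* among 14470 genes with at least 100 counts on average were *Slc25a1* (r = 0.971), *Prosc* (0.969), *Naca* (0.960), *Lgi2* (0.954) and *Pam16* (0.946). With 8 mice and this many genes, high values of r are a description and carry no test, and libraries share depth and tissue content. The ganglion markers *Sncg* and *Pou4f1* ranked 67 (r = 0.870) and 79 (r = 0.862). *Eomes* ranked 919 (r = 0.641), *Tbx20* 1747 (r = 0.517), *Adcyap1* 2334 (r = 0.444) and *Nmb*, of the other melanopsin cell genes, 10353 (r = -0.272).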

How the data were processed

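The 8 retinas (4 control, 4 Rbfox2-/-, each a library of its own) were grouped by their genotype labels. The authors used STAR on mm10, retained reads with a unique position and assigned fragments to genes in HTSeq, naming both a RefSeq and an Ensembl annotation. They deposited raw counts, and each of the 17500 genes had 5 counts or more in 4 mice or more. The submitters' processing notes also name CASAVA 1.8.2. The authors deposited FPKM per mouse in the same table, which was used only to compare levels between genes. The deposited fold changes, p-values, FDR and adjusted signals of the authors' own comparison were not used.

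In R 4.3.3, edgeR 4.0.16 served to filter the counts (filterByExpr), scale them (TMM) and run the quasi-likelihood test, with no covariate and Benjamini-Hochberg adjustment over all genes tested. Standard errors are the log2 fold change over the square root of F. Alternatives were DESeq2 1.42.0, limma-voom (limma 3.58.1), the likelihood ratio test, other scalings, filters and covariates, and left-out mice. Single genes were also compared by exact permutation over 70 groupings. The procedure was tested on simulated data. Each member had 462 counts or more per mouse, and counting alone gives a coefficient of variation of 0.667% to 4.09%. No source says that the mice were from separate litters, and p-values set a group difference against the spread between these mice.

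The members and lists were chosen with earlier results of these data known. The named genes are all members and, from each pathway list, those with an unadjusted p under 0.05 (at most 6), or the 2 with the lowest p where fewer passed. For *Opn4* the 5 genes of highest correlation are named. Genes were placed on GENCODE M21 by symbol.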

Additional observations from a re-analysis of the deposited data

Results flagged for a closer look

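Among 18 groups of 4 mice (9 members in both genotypes), 2 had a mouse that stood far from the other 3, where chance gives about 0.9. *Gna11* was lowest in Rbfox2-/- mouse M909 at 82.6 CPM, with a gap of 0.846 of the range of its group. *Trpc6* was highest in Rbfox2-/- mouse M901 at 3.96 CPM, with a gap of 0.877 of the range.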

How the results depend on the processing

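The number of genes with an FDR under 0.05 was 11 by edgeR's quasi-likelihood test, 460 with DESeq2, 164 with the likelihood ratio test, 185 on a scale set by the ganglion markers, 23 with the ganglion marker sum as a covariate (chosen after seeing the data), 4 with high *Xist* as a covariate and 1 without M901 and M902. Leaving out 1 mouse at a time gave 5 to 35, the highest without M833. The number of members past that threshold was 1 with DESeq2 (*Adcyap1*) and 0 to 0 with each mouse left out. Members with an unadjusted p under 0.05 numbered 1 with the likelihood ratio test, 0 on the ganglion scale and 1 to 4 with each mouse left out. The share of all genes at that p was not counted in these settings, so these counts have no background. On the ganglion scale 2 members did not overlap between groups, where 1.17% of all genes did not overlap. Members without overlap numbered 5 without M901 and M902, where 13.8% of all genes did not overlap, and 3 to 4 with each mouse left out (8.46% to 16% of all genes). Of the members' log2 fold changes, 155 kept sign and side of the threshold, 1 crossed it (*Adcyap1* with DESeq2, 0.52) and 6 changed sign. These were *Opn4* without M833 (-0.072), M893 (-0.010) or M901 (-0.0040), and *Trpc7* on the ganglion scale (-0.050), without M901 (-0.016) or M909 (-0.010). Over the left-out mice, the log2 fold change of *Opn4* ran from -0.072 to 0.13, and that of *Trpc7* from -0.016 to 0.073. On the ganglion scale the median of all genes was -0.06, and the medians of the other Gq and TRPC genes, the second messenger genes and the PACAP genes were each -0.11. The cause of these changes was not tested. No paired analysis was possible because the groups share no mouse number. The members had at least 462 counts in each mouse.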
